A study of Mus musculus with 4 samples.

Results

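The *Adamts* and *Timp* wells of an ECM qPCR array were followed in 4 cultures of primary mouse osteoblasts (OBs), the bone-forming cells, isolated from long bones. They were chosen by their position on the array, wells A01 to A04 for the proteases *Adamts1*, *Adamts2*, *Adamts5* and *Adamts8* and wells G06 to G08 for the inhibitors *Timp1*, *Timp2* and *Timp3*, and make up 7 of its 84 wells. All cultures came from 4-day-old mice carrying floxed *Vegf* alleles (*Vegf* fl/fl). Female WT and male WT cells received an adenovirus that expresses GFP alone, and female OBVEGFKO and male OBVEGFKO cells received one that expresses Cre-recombinase with GFP, which removes the floxed *Vegf* sequence. The WT cells were therefore also floxed and transduced. Transduction lasted 6 days and was followed by 24 h in 1% serum, and cDNA was made from 500 ng RNA of each. With 1 cDNA per group (n = 1), a difference within a sex or a genotype below is that between 2 cultures, without replicate error and without a test. How many animals gave the cells of a culture is not given in the sources used here, and *Vegf* mRNA was not analysed here.

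ADAMTS enzymes are secreted zinc metalloproteases that cut matrix proteins, and tissue inhibitors of metalloproteinases (TIMPs) are small secreted proteins that block metalloproteases by occupying the active site. In bone, the balance between them bears on how collagen is processed and how proteoglycans are removed. ADAMTS2 trims the amino-terminal propeptide from procollagen, ADAMTS5 cleaves aggrecan and versican, and ADAMTS1 and ADAMTS8 cut proteoglycans and have anti-angiogenic activity. TIMP3 stays bound to the matrix and inhibits several ADAMTS enzymes as well as matrix metalloproteinases (MMPs), TIMP2 also takes part in the activation of pro-MMP2, and TIMP1 is a secreted MMP inhibitor.

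The Ct table identifies wells by position and not by gene. A total of 11 genes were located through the fold changes given for them in the text of the study, and the 11 wells stood in the alphabetical order of the gene symbols. For 10 of them 1 well alone met all 4 comparisons within 0.1 on the log2 scale, and for *Mmp9* a second well did so too and the well that fits the alphabetical order was taken. *Adamts2* (A02) is the only member located in this way. The names of the other 6 members follow the alphabetical layout of the array and were not checked by a value of their own. Of the located genes, *Col1a1*, *Sparc* and *Spp1*, which osteoblasts express strongly, had a cycle threshold (Ct) between 14.64 and 18.87, whereas the leukocyte integrin gene *Itgae* and the complement gene *Hc* were between 31.64 and 35. The Ct counts the PCR cycles needed to reach a fixed fluorescence, and each cycle fewer means 2 times as much template where amplification is complete. No Ct exceeded 35, and no member reached it. Since each culture was measured as bulk RNA, fewer cells of a type and less RNA per cell cannot be told apart.

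*Timp2* (G07) gave the lowest Ct of the 7 wells in every culture, at 20.33 in WT and 16.64 in OBVEGFKO cells of females and at 19.53 in WT and 16.69 in OBVEGFKO cells of males. *Timp3* (G08) stood at 24.76, 21.23, 24.38 and 21.10 in that order, which is kept below. Both inhibitors had a lower Ct in each OBVEGFKO culture than in each WT culture, as nearly all wells of the array did. *Adamts1* (A01) had Ct values of 21.97, 19.64, 21.31 and 18.87, and *Adamts2* (A02) of 23.47, 21.14, 23.27 and 20.63. *Adamts5* (A03) stood at 22.56, 19.03, 21.57 and 18.28. These 3 proteases were thus readily measured. *Adamts8* (A04) was the latest of the protease wells, at 31.63, 27.53, 30.50 and 27.35. In each protease and in *Timp3* the male culture had the lower Ct at either genotype. The median reference well was also lower in males, by 0.44 cycles in WT and 0.01 in OBVEGFKO cells. Assays of different genes can amplify with different efficiency, so the order of Ct between genes is not an order of transcript number.

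*Timp1* (G06) was the exception. Its Ct was 30.02 in female WT cells, whereas female OBVEGFKO cells gave 19.30, male WT cells 22.39 and male OBVEGFKO cells 20.16. After the median Ct of the reference wells (the 76 wells under 35 in all cultures) was taken off in each culture, *Timp1* lay between −2.31 and −1.50 cycles in the 3 other cultures and at 4.74 cycles in female WT cells, 6.75 cycles from the median of the other 3. The same distance, taken for the reading of each reference well that lay farthest from its other 3, had a median of 0.75 cycles, reached at least 3 cycles in 3 wells and was larger than that of *Timp1* in 1 well. Among the 6 other members it was at most 1.64 cycles. The female WT reading of *Timp1* is therefore given as a possible failed reading, and the values that rest on it are named as such. A repeat of this well, which would tell a failed reaction from a low transcript level, was not analysed here.

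**Figure D1:**
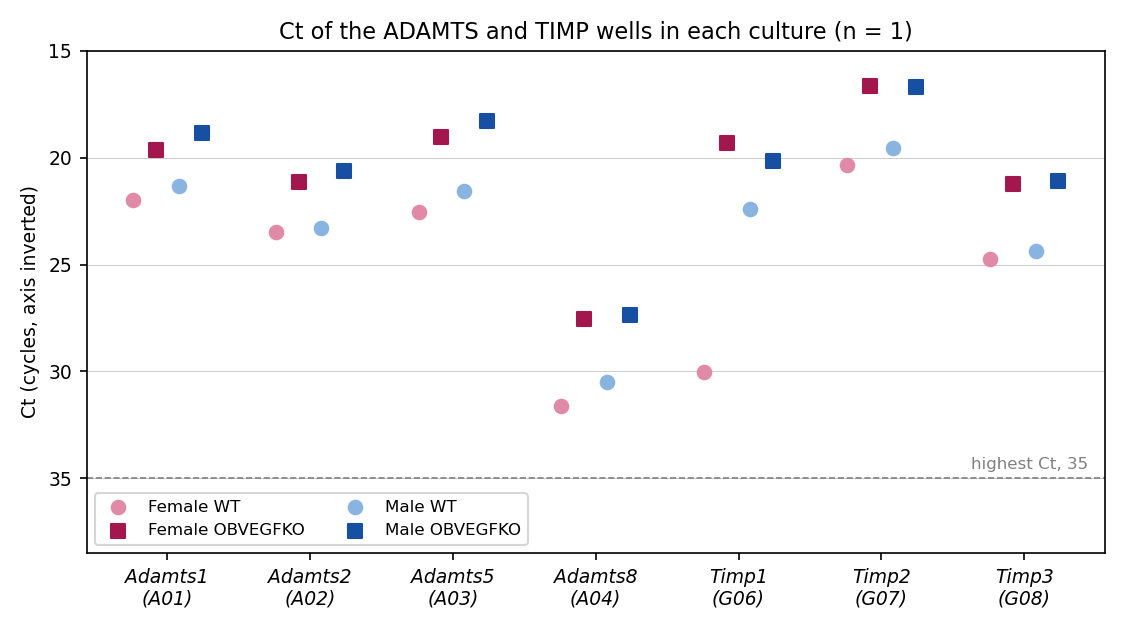
Ct of the 7 wells (vertical axis in cycles, inverted so that more template is higher) in the 4 cultures, 1 reading per symbol, with circles for WT and squares for OBVEGFKO. Both OBVEGFKO symbols stand above both WT symbols in all 7 wells, and the female WT circle of *Timp1*, at 30.02, lies far below its other 3 readings of 19.30 to 22.39.

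From WT to OBVEGFKO, the Ct of all 7 members was lower in both sexes. The differences ranged from 2.33 cycles for *Adamts1* and *Adamts2* to 4.10 cycles for *Adamts8* in female cells, *Timp1* left aside, and from 2.23 cycles for *Timp1* to 3.29 cycles for *Adamts5* in male cells. This shift was shared by the array, since 100% of 82 wells in female and 97.5% of 81 wells in male cells had a Ct lower by at least 1 cycle in OBVEGFKO cultures, wells at 35 in both cultures being left out. The Ct of the median reference well was lower by 3.28 cycles in females and by 2.84 in males. A value of 1 cycle or more is thus no result about the members. A well called lower from here on still gave more template in OBVEGFKO than in WT cells, and gained less than the median well. The members were accordingly described by their departure from the median reference well, the log2 change of a well minus the median log2 change of the 76 reference wells.

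Relative to the median well, *Adamts1* and *Adamts2* were lower in the OBVEGFKO cultures of both sexes, as were 31.6% of the 76 reference wells. In female cells both had a log2 departure of −0.95, 1.93-fold less than the median well and rank 73 of 76 from the highest. In male cells the departures were −0.40 for *Adamts1* and −0.20 for *Adamts2*. The median absolute deviation of the reference wells, scaled to an SD and called the robust SD here, was 0.43 in each sex, so that in units of this spread between genes the departures were −2.21 for both in female cells, and −0.93 for *Adamts1* and −0.47 for *Adamts2* in male cells. Averaged over both sexes, *Adamts1* and *Adamts2* ranked 2 and 3 from the lowest of the 76 wells, at −0.68 and −0.58. Both proteases thus stood low against the array in the female cultures, and within its spread in the male cultures. A limma fit of OBVEGFKO against WT with sex as a block, in which the 2 sexes stand in for replicates and 1 residual degree of freedom is left, was added after the values were seen. It called 0 of 76 wells (0%) at a Benjamini-Hochberg adjusted p under 0.05, with 8 wells and none of the 7 members under 0.05 before adjustment. The mean departure of *Adamts1* had an SE of 0.22 and an adjusted p of 0.43 in this limma fit, and that of *Adamts2* an SE of 0.29 and an adjusted p of 0.53. With 1 residual degree of freedom a missed threshold does not show that there was no departure.

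*Adamts5* and *Timp3*, an aggrecan-cleaving protease and a TIMP that inhibits it, departed to nearly the same extent. *Adamts5* was at 0.25 in female and 0.45 in male cells, and *Timp3* at 0.25 and 0.44. *Adamts8* was at 0.82 in female and 0.31 in male cells, and *Timp2* at 0.41 and 0.00. *Adamts5*, *Adamts8* and *Timp3* lay above the median well in both sexes, as did 32.9% of the reference wells, and *Timp2* did so in female cells only. The 0.82 of *Adamts8* was 1.91 times the robust SD while the 0.45 and 0.44 of *Adamts5* and *Timp3* were 1.05 and 1.02 times. Their side of 0 depended on the reference in female cells, since against the median Ct of the whole panel *Adamts5* and *Timp3* were at −0.51 and *Timp2* at −0.35. *Timp1* departed by −0.61 in male cells, 74 of 76 from the highest. In female cells its departure was 7.44, which rests on the doubtful WT reading.

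Relative to the median well, *Timp1* was the only member to depart by 2-fold or more after OBVEGFKO. With that reading 1 of 7 members did so in female cells, against 9.76% of the wells with a defined change, and without it 0 of 6. The count in female cells depended on the reference, because *Adamts1* and *Adamts2* reached −1.71 against the median Ct of the whole panel and −1.31 against the mean of the reference wells, and *Adamts8* reached 1.14 against *Col1a1*, *Sparc* and *Spp1*. Without *Timp1* the counts were then 2, 2 and 1 of 6, beside 34.1%, 17.1% and 18.3% of the wells with a defined change under the same 3 references. The mean of the reference wells still included *Timp1* at 7.44 and well E01 at 15.02, the 1 well with a farther reading than *Timp1*. The −1.31 and its count therefore rest in part on the doubtful reading. In male cells the count was 0 of 7, against 12.3%. The median of the 4 *Adamts* wells was −0.35 in female cells, between 2 wells at −0.95 and 2 at 0.25 and 0.82, and 0.06 in male cells. The median of the 3 *Timp* wells was 0.41 in female cells, 0.33 without *Timp1*, and 0.00 in male cells. The median of the reference wells is 0 by construction, with 37 of the 76 wells above it in each sex. The *Adamts* wells lay on both sides of the median well in both sexes, *Adamts1* and *Adamts2* below it and *Adamts5* and *Adamts8* above it. The *Timp2* and *Timp3* wells were above it in female cells, as was *Timp1* with the doubtful reading, whereas in male cells *Timp3* was above, *Timp2* at and *Timp1* below it.

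**Figure D2:**
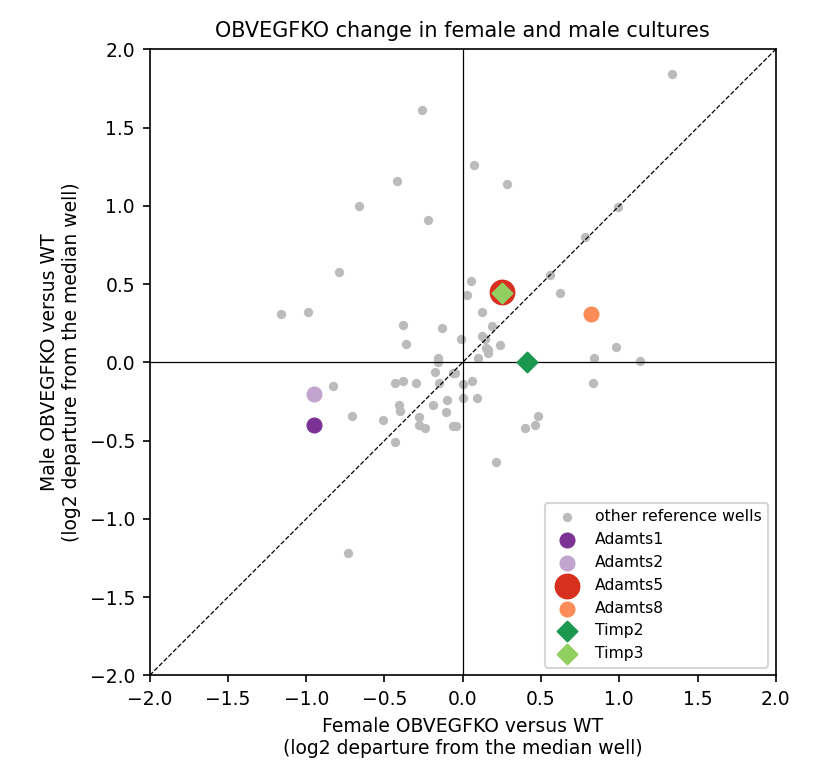
Log2 departure from the median reference well, OBVEGFKO versus WT, in female (horizontal) and male cultures (vertical), with 1 symbol per well and *Timp1* left out. *Adamts1* and *Adamts2* lie in the lower left quadrant at −0.95 on the female axis, *Adamts5* and *Timp3* lie on top of each other, and 3 of the 69 other reference wells fall outside the axes.

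The Ct difference between 2 wells of the same culture does not depend on any reference. All pairs of members were therefore compared, a step that was added after the values were seen. *Adamts2* stood 4.60 cycles above *Col1a1*, the gene of the procollagen chain that ADAMTS2 trims, in female WT cells and 5.58 after OBVEGFKO, and 4.81 in male WT cells and 5.44 after OBVEGFKO. Both OBVEGFKO cultures were thus above both WT cultures, with a change of 0.98 (female) and 0.63 cycles (male), which means less *Adamts2* per *Col1a1*. *Adamts1* stood 3.10, 4.08, 2.85 and 3.68 cycles above *Col1a1* in the same order, a change of 0.98 and 0.83 cycles. Against each of *Adamts5*, *Adamts8*, *Timp2* and *Timp3*, the Ct of *Adamts1* and of *Adamts2* was higher after OBVEGFKO in both sexes. These changes ranged from 1.20 to 1.77 cycles in female and from 0.20 to 0.85 in male cells. They equal the differences between the departures given above and are no separate support for them. Of the 15 pairs of members without *Timp1*, 9 moved one way in both sexes, beside 56.0% of all 2850 pairs of reference wells. Against *Timp1* the male cultures went the other way, with changes of −0.21 cycles for *Adamts1* and −0.41 for *Adamts2*, readings that do not involve the doubtful one. The female change against *Timp1* was 8.39 cycles for both proteases and rests on it. Between *Adamts1* and *Adamts2* themselves the difference was −1.50 cycles in both female cultures, −1.96 in male WT and −1.76 in male OBVEGFKO cells.

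The pair of *Adamts5* and *Timp3* kept its Ct difference between genotypes. It was −2.20 cycles in both female cultures, −2.81 in male WT and −2.82 in male OBVEGFKO cells. Among all 2850 pairs of reference wells, 7 pairs (0.25%) kept their difference within 0.02 cycles in both sexes, and this pair was singled out after its values were seen. It is among the 7, and the limit lies just above its own changes of 0.00 and −0.01 cycles, so the share does not measure how rare it is. Between the sexes it differed by 0.61 cycles in WT and 0.62 cycles in OBVEGFKO cells, with more *Adamts5* per *Timp3* in male cells at both genotypes. *Adamts1* stood at −2.79, −1.59, −3.07 and −2.23 cycles from *Timp3* in the same order of cultures. Its Ct relative to this inhibitor was thus higher after OBVEGFKO, by 1.20 (female) and 0.84 cycles (male). *Timp2*, by contrast, moved in opposite directions against *Timp3*, by −0.16 (female) and 0.44 cycles (male).

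**Figure D3:**
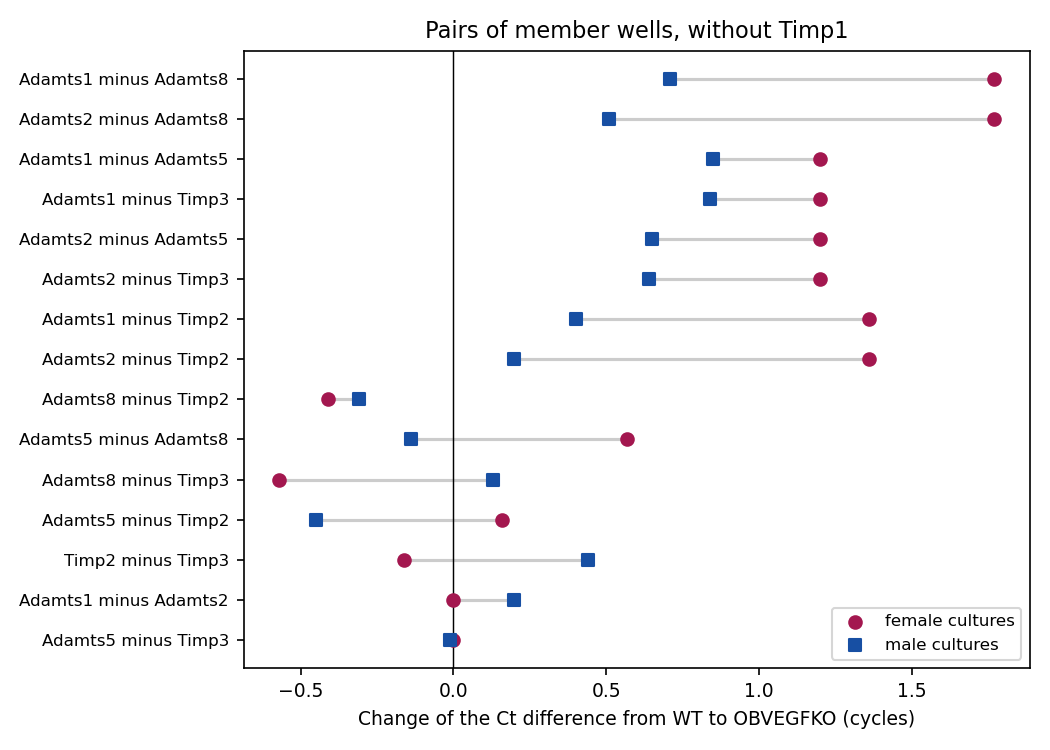
Change of the Ct difference from WT to OBVEGFKO (cycles) for the 15 pairs of members without *Timp1*, in female (circles) and male cultures (squares), with a grey line joining the sexes. A positive value means less of the first gene relative to the second, and the 8 pairs that set *Adamts1* or *Adamts2* against another gene of the set lie right of 0 in both sexes (pairs with *Timp1* are not drawn, and 56.0% of all pairs of reference wells moved one way in both sexes), while *Adamts5* minus *Timp3* lies at 0.

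The region before the start of *Adamts1* and *Adamts2* is shown because these 2 genes had the lowest departures of the 7 members in female cells. The 250 bases upstream of each annotated start were taken from RefSeq (GRCm38.p6), on chr16:85803114-85803363 (minus strand) for *Adamts1* and on chr11:50601835-50602084 (plus strand) for *Adamts2*. Capitals mark a GC box (GGGCGG on either strand) or a TATA box (TATAAA on either strand), which overlap in no place here.

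*Adamts1*: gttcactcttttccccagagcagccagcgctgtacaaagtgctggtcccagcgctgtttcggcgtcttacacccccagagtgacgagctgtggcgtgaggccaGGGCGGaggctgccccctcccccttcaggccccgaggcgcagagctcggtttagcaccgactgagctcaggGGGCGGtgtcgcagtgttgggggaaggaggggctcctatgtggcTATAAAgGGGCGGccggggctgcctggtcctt

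*Adamts2*: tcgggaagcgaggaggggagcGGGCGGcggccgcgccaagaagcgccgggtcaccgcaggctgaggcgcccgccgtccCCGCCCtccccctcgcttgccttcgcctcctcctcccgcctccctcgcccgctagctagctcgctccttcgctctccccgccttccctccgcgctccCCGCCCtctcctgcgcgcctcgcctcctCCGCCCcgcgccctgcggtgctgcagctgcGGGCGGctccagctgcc

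The *Adamts1* window held 3 GC boxes and 1 TATA box, which began 32 bases before the start, and the *Adamts2* window held 5 GC boxes and no TATA box. The windows of *Timp1*, *Timp2* and *Timp3* held 1 GC box each and no TATA box, and those of *Adamts5* and *Adamts8* were not analysed here. A GC box was present in 32.7% and a TATA box in 12.4% of all 32851 windows of this length. The share of G and C was 65.6% in the *Adamts1* and 78.0% in the *Adamts2* window, beside a median of 52.4% over all windows. It was 54.4%, 68.0% and 65.6% in those of *Timp1*, *Timp2* and *Timp3*. The counts of GC boxes were not corrected for this composition. An AP-1 motif (TGAGTCA on either strand), present in 4.46% of all windows, was in none of the 5. A match is a run of letters and not a measured binding site, and no chromatin or binding data were collected.

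Between WT cultures, the Ct of all 7 members was lower in male than in female cells, by 0.20 cycles for *Adamts2* to 1.13 cycles for *Adamts8* without *Timp1*, and the median reference well was lower by 0.44 cycles. A departure of −0.28, the lower quartile of the reference wells, still leaves a lower Ct in male cells. Most of the array thus shared this direction, which is no result about the members. Relative to the median well, *Adamts8* was at 0.69, *Adamts5* at 0.55, *Timp2* at 0.36 and *Adamts1* at 0.22 in male versus female WT cells. *Adamts2*, at −0.24, and *Timp3*, at −0.06, lay on the other side, but without normalisation all 7 were on the male side, as was most of the array. The robust SD of the reference wells was 0.40, so that *Adamts8* and *Adamts5* exceeded this spread, by 1.72 and 1.37 times. Their ranks from the highest were 7 and 9 of 76. *Timp1* was at 7.19 with the doubtful female WT reading, the highest of the 76 wells. With it 1 of 7 members departed by 2-fold or more, against 12.5% of the wells with a defined change, and without it 0 of 6.

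Between OBVEGFKO cultures the median reference well differed by 0.01 cycles, whereas the median Ct over all 84 wells was 21.92 in female and 22.56 in male cells, so that the values below depend on the reference. *Adamts1* was at 0.76, *Adamts5* at 0.74 and *Adamts2* at 0.50 in male versus female OBVEGFKO cells, which ranked them 7, 8 and 12 of 76. *Adamts8* was at 0.17, so that all 4 protease wells were on the male side, with a median of 0.62, as were 38 of the 76 reference wells. Against *Col1a1*, *Sparc* and *Spp1* as reference *Adamts8* turned to −0.09. The inhibitors were spread about the median well, with *Timp3* at 0.12, *Timp2* at −0.06 and *Timp1* at −0.87, or rank 70 of 76. The *Timp1* Ct was 20.16 in male and 19.30 in female OBVEGFKO cells, and this difference does not involve the doubtful reading. No member departed by 2-fold or more, against 15.9% of the wells with a defined change, and the robust SD of the reference wells was 0.51. Against the median Ct of the whole panel, *Adamts1* (1.41), *Adamts5* (1.39) and *Adamts2* (1.15) did so, against the mean of the reference wells *Adamts1* (1.05) and *Adamts5* (1.03), and against *Col1a1*, *Sparc* and *Spp1* only *Timp1* (−1.13). Under these references 30.5%, 22.0% and 15.9% of the wells with a defined change passed 2-fold. The share thus rose with the count for the panel median and the mean, whereas with *Col1a1*, *Sparc* and *Spp1* it stayed at 15.9%. The mean of the reference wells includes well E01, at −15.17 here, whose female OBVEGFKO reading lay 14.5 cycles from the median of its others. The mean was not recomputed without this well.

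**Figure D4:**
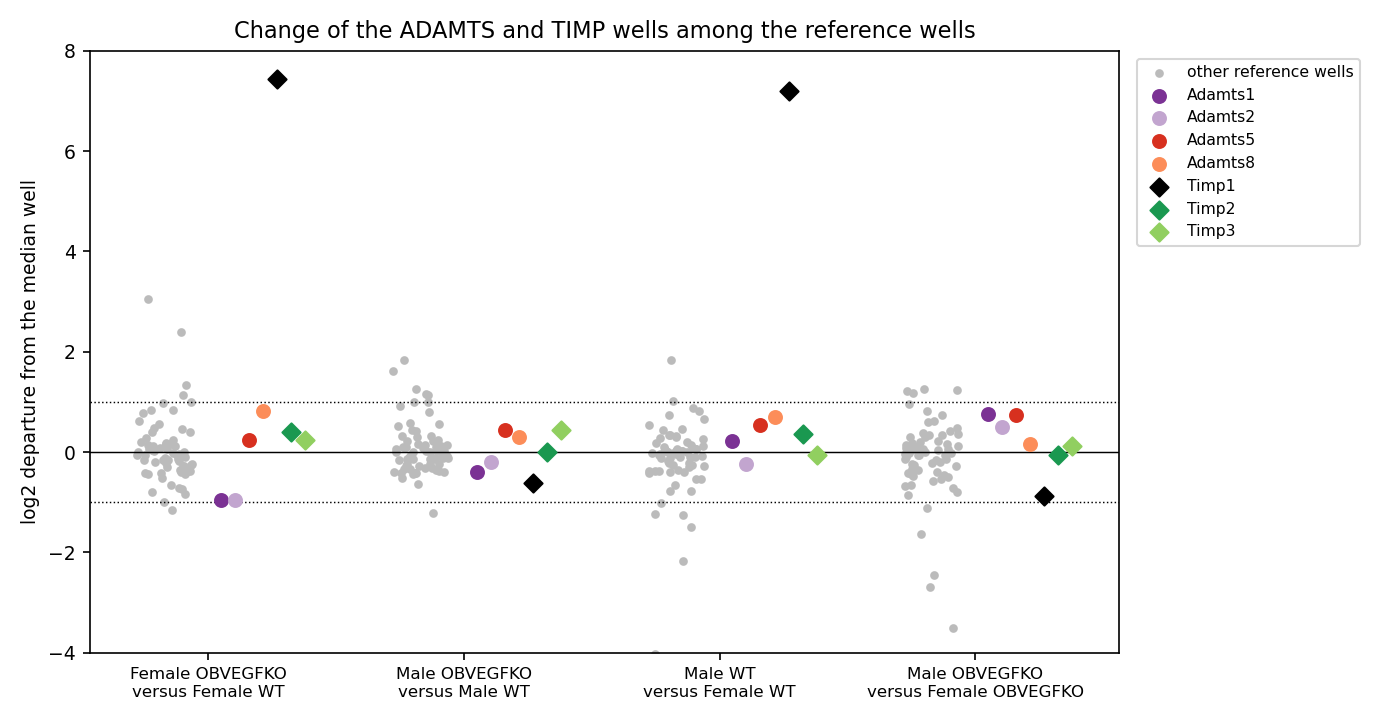
Log2 departure from the median reference well (vertical axis) of the 7 members (coloured circles for *Adamts*, diamonds for *Timp*) and of the other reference wells (grey) in the 4 comparisons, with dotted lines at 2-fold. Members lie between −0.95 and 0.82 except *Timp1* at 7.44 and 7.19 in the comparisons that use the female WT culture, and 1 reference well lies outside the axis in each comparison but that of male OBVEGFKO with male WT.

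The change from WT to OBVEGFKO can also be set against sex, and this difference is within 0.01 of the sex difference in OBVEGFKO minus that in WT, since the reference median was taken in each comparison separately. The male departure exceeded the female departure by 0.75 for *Adamts2*, 0.55 for *Adamts1*, 0.20 for *Adamts5* and 0.19 for *Timp3*. It was smaller by 0.51 for *Adamts8* and by 0.41 for *Timp2*. Among the reference wells this difference had a robust SD of 0.46, which *Adamts2*, *Adamts1* and *Adamts8* exceeded. The signs depended on the reference, because without normalisation the differences were 0.31 for *Adamts2* and 0.11 for *Adamts1*, and those of *Adamts5* (−0.24) and *Timp3* (−0.25) turned negative. Against the median Ct of the whole panel, those of *Adamts8* (0.12) and *Timp2* (0.22) turned positive. With 1 culture for each sex and genotype, whether the sexes differed was not tested.

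The other proteases of the array give a setting for these values. The 9 wells from *Mmp13*, a collagenase gene, to *Mmp9*, a gelatinase gene, can hold only *Mmp* genes in an alphabetical layout, and 8 of them were under 35 in all cultures. These 8 had a median departure of −0.02 in female and −0.14 in male OBVEGFKO versus WT cells, with 1 well at least 2-fold higher in female cells and none at least 2-fold lower in either sex. In male versus female WT cells their median was 0.37, beside 0.39 for the *Adamts* wells. *Mmp13* itself departed by 0.83 in female and −0.13 in male cells after OBVEGFKO, and *Mmp9* by 0.12 and 0.17. The inhibitor *Timp2* stood at −5.70, −5.28, −5.04 and −5.17 cycles from *Mmp13* in the 4 cultures, so that the gap narrowed in females and widened in males after OBVEGFKO. Of the 5 located matrix genes *Col1a1*, *Sparc*, *Spp1*, *Thbs1* and *Lama1*, the median departure was −0.15 in female and 0.15 in male cells.

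The pattern over the 4 cultures was compared as the root mean square difference in Ct, after the median of each culture and the mean of each well were removed. *Sparc*, the osteonectin gene, was the well most like *Adamts2*, with a difference of 0.05 cycles, first among the 75 other reference wells. *Adamts2* was in turn the well most like *Adamts1*, at 0.19 cycles, followed by *Sparc* at 0.23 cycles. *Mmp13* was the well most like *Adamts8*, at 0.16 cycles. For *Timp3* the nearest named gene was *Col1a1*, at 0.10 cycles and rank 3 of 75, and for *Timp2* it was *Mmp9*, at 0.12 cycles and rank 4 of 75. *Adamts5* was nearest to *Adamts8* among named genes, at 0.23 cycles, with other wells nearer. For *Timp1* the nearest named gene was *Mmp13* at 2.69 cycles, a distance set by the doubtful female WT reading. Over the 3 other cultures it was *Timp2*, at 0.34 cycles and rank 22 of 75. Only the members and the located genes could be named here, and 4 readings per well share the same 4 cDNAs.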

How the data were processed

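The authors reverse transcribed RNA of 4 OB cultures, ran SYBR Green qPCR on an ECM and adhesion array and deposited the Ct of 84 wells per culture, to 2 decimals and not normalised. Their threshold setting and their handling of late wells are not given in the sources used here. A second deposited table holds the authors' own fold changes between cultures, made with housekeeping genes of the array by the ΔΔCt method. It was not used. The Ct table used here has 0 wells of the housekeeping row, so the normalisation to these genes was not applied, no change relative to them was computed, and the median change of 76 wells, those never at 35, served as the reference. Each of the 4 columns of the Ct table was matched to its culture by name.

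The log2 change of a well is minus its Ct difference at an efficiency of 2. The departure is this change minus the median over the reference wells. Genes named are the 7 members and 11 genes located by fold changes in the text of the study, which were used for nothing else. The members and lists were chosen with earlier results of these data known. A departure of 2-fold served to count wells. With 1 culture per group there are no p-values within a sex or genotype. OBVEGFKO versus WT over both sexes was fitted with limma 3.58.1 (R 4.3.3) on the departures of the 76 reference wells, with sex as a block. Departures were checked on simulated arrays, where 234 of 234 changed wells were recovered within 0.6. The simulated noise was smaller than the spread between the reference wells, and no failed reading was simulated. Since 0.6 is also wider than most departures of the members, the check covers the computation and not departures of their size. Alternatives were other references, no normalisation, an efficiency of 1.9, thresholds of 1.5-fold and 4-fold, list means and leaving out 1 *Timp1* reading. Gene names and promoter windows are from RefSeq (GRCm38.p6), where all 7 symbols were found, and windows of 5 of them were used here. Python 3.11.15, numpy 2.4.6, pandas 2.3.3 and matplotlib 3.10.9 were used.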

Additional observations from a re-analysis of the deposited data

Results flagged for a closer look

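The following values were singled out because a change went one way in one sex or genotype and the other way in the other. Each rests on 1 culture per group and the difference was not tested.

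For *Timp1*, the OBVEGFKO departure was 7.44 in female and −0.61 in male cells, a male minus female difference of −8.05. The sex difference was 7.19 in WT and −0.87 in OBVEGFKO cells, which differ by −8.06. Both rest on the female WT reading of 30.02, and without it neither can be computed. Values of *Timp1* that do not use this reading are −0.61 for male OBVEGFKO versus WT and −0.87 for male versus female OBVEGFKO cells.

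For *Adamts2*, the male versus female departure was −0.24 in WT and 0.50 in OBVEGFKO cells, a difference of 0.74. For *Timp2* it was 0.36 and −0.06, a difference of −0.42, and for *Timp3* it was −0.06 and 0.12, a difference of 0.18. These opposite sides depended on the reference. Without normalisation *Adamts2* was at 0.20 and 0.51 and *Timp3* at 0.38 and 0.13, and against the panel median Ct *Timp2* was at 0.37 and 0.59, each on the male side at both genotypes. The differences of *Timp2* and *Timp3* are below the robust SD of 0.46 over the reference wells.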

How the results depend on the processing

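The choice of the reference moved the results most, because it adds 1 number to every log2 change of a comparison. The limit for calling a value moved was 0.40 (log2), the robust SD of the reference wells between WT cultures, and for counts it was a factor of 1.5. Of 224 values of single genes under the alternatives, 187 stayed within this limit and 37 moved. A reversal was counted only for values past 2-fold in the main setting, which were *Timp1* at 7.44 and 7.19, both with the doubtful reading. The count of 0 reversals was set by their size and says nothing about the smaller values, some of which changed side. All wells as reference, reference wells with a Ct of at most 30, reference wells without the 7 members, and the 4-fold threshold moved no value or count.

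Without normalisation, 7 of 7 members were at least 2-fold higher in female and in male OBVEGFKO cells, and 2 were in male versus female WT cells, beside 100% and 97.5% of all wells with a defined change after OBVEGFKO and 12 of 80 between WT cultures. The *Adamts* medians were then 2.93, 2.90 and 0.83, and the *Timp* medians 3.69, 2.84 and 0.80, in the same order of comparisons. Without the *Timp1* reading, 6 of 6 and 1 of 6 passed in the comparisons that use female WT cells, with *Timp* medians of 3.61 and 0.59. The male minus female differences of the OBVEGFKO change were 0.11, 0.31, −0.24 and −0.95 for *Adamts1*, *Adamts2*, *Adamts5* and *Adamts8*, and −8.49, −0.85 and −0.25 for *Timp1*, *Timp2* and *Timp3*. Against the panel median Ct these differences were 1.18, 1.38, 0.83, 0.12, −7.42, 0.22 and 0.82. In that setting 3 members passed 2-fold in female OBVEGFKO versus WT cells, with medians of −1.11 (*Adamts*) and −0.35 (*Timp*), and 3 in male versus female OBVEGFKO cells, with medians of 1.27 and 0.59. In these 2 comparisons the counts were 3 and 2 with the mean of the reference wells, and 2 and 1 with *Col1a1*, *Sparc* and *Spp1* as the reference. The shares of all wells were 34.1% and 30.5% against the panel median, 17.1% and 22.0% with the mean, and 18.3% and 15.9% with these 3 genes. At 1.5-fold the counts were 4 and 1 for OBVEGFKO versus WT in female and male cells, and 2 and 3 for male versus female cells in WT and OBVEGFKO, beside 30.5%, 19.8%, 22.5% and 34.1% of all wells. Without the *Timp1* reading, chosen after seeing the data as a second change, the female OBVEGFKO count was 2 against the panel median or the mean of the reference wells, 1 against *Col1a1*, *Sparc* and *Spp1* and 3 at 1.5-fold, with *Timp* medians of −0.43 and −0.027 in the first pair. In male versus female WT cells it was then 0 against each of these references and 1 at 1.5-fold. The mean of the reference wells was itself not recomputed without *Timp1* or well E01. An efficiency of 1.9 gave −7.45 for the *Timp1* difference. Means in place of medians gave 2.70 and 2.50 for the *Timp* wells in the comparisons that use female WT cells, or 0.33 and 0.15 without the *Timp1* reading, and without it 0 of 6 members passed 2-fold there.

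The Ct differences between wells of a culture do not depend on the reference. By replicate number, no paired analysis was possible because each group has 1 culture. Paired by sex, with sex as a block, limma called 0 of 7 members and 0 of 76 wells against the median and against *Col1a1*, *Sparc* and *Spp1*, 0 of 7 members and 1 of 76 wells against the mean and against the panel median, and 7 members without normalisation, where it called 98.7% of the 76 wells. Against the mean, against the panel median and without normalisation every well had the same SE (1.05, 1.06 and 1.11). A call there rested only on the size of the mean change, and without normalisation this holds the shift shared by the array. Departures read relative to housekeeping genes were not analysed here, and the precision of a single Ct is unknown.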
